A study of Mus musculus with 9 samples.

Results

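Fatty acid uptake and oxidation was described through 37 genes, chosen by their symbols from the 17314 genes of a muscle RNA-seq table. All 37 were present in the table, and all 37 passed the filter on low counts among the 13044 genes tested. They were sorted by role into 5 genes of uptake, 7 of activation and mitochondrial entry, 12 of beta-oxidation, 3 of electron transfer, 3 of uncoupling, thioester hydrolysis and fuel choice, 2 of ketone body use and 5 of lipid droplets and lipolysis. Some members lie beside the pathway rather than in it, since Pdk4 acts on pyruvate use and Bdh1 and Oxct1 act on ketone bodies.

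The RNA came from whole gastrocnemius, the large calf muscle, of mice at 6, 15 and 21 months of age. There were 3 separate mice per age with 1 library each, numbered 1 to 3 as in the sample labels. Strain, sex, genotype and treatment of the mice were not given in the sources used here, and no group other than age was labelled. Thyroid hormone receptor alpha and muscle aging appear in the title of the series, and the comparisons here ask how fuel genes of muscle differed between ages.

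Muscle takes fatty acids from circulating triglyceride through lipoprotein lipase, carries them across the membrane and binds them in the cytosol. They are then joined to coenzyme A, passed into mitochondria as carnitine esters and shortened by repeated rounds of dehydrogenation, hydration, dehydrogenation and thiolysis. Slow and fast oxidative fibres rely on this pathway more than fast glycolytic fibres, and nuclear receptors of the PPAR and ERR families are known to drive many of its genes, most of all in fasting and exercise.

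Hadha and Hadhb encode the alpha and beta subunits of the mitochondrial trifunctional protein, which carries out the last steps of each round on long chains. RefSeq places their starts on chromosome 5 (GRCm38.p6) at 30154980 on the minus strand and 30155253 on the plus strand, 273 bases apart, so the genes point away from each other. The promoter of Hadhb, from 250 bases before to 50 bases after its start, is shown because 228 of its bases, in capitals, also belong to the same window of Hadha (chr5:30155003-30155302, plus strand). The capitals lie between the genes, and the last 50 bases are transcribed as the start of Hadhb.

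Hadhb: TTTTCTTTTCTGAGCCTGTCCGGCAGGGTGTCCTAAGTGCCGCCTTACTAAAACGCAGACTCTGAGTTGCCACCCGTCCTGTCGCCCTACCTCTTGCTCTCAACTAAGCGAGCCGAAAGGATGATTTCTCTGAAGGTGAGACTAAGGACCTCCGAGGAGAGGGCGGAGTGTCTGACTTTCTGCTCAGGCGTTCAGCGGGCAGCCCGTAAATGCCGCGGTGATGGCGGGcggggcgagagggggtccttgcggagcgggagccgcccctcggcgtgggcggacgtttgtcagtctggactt

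The promoters of Acadm, the medium-chain acyl-CoA dehydrogenase (chr3:153944594-153944893, minus strand), and of Ucp3, a mitochondrial carrier (chr7:100472741-100473040, plus strand), are shown as examples from different mouse-by-mouse patterns described further on. In them the letters AGGTCA, the half-site read by many nuclear receptors, are in capitals on either strand. Each window ends with the first 50 transcribed bases of its gene. Most members searched did not hold these letters in the same window, Pdk4 among them.

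Acadm: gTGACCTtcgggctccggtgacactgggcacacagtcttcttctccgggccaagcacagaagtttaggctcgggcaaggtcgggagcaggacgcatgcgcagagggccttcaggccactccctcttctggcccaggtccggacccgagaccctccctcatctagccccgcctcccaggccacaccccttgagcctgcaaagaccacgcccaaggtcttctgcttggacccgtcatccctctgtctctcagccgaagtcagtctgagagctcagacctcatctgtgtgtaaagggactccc

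Ucp3: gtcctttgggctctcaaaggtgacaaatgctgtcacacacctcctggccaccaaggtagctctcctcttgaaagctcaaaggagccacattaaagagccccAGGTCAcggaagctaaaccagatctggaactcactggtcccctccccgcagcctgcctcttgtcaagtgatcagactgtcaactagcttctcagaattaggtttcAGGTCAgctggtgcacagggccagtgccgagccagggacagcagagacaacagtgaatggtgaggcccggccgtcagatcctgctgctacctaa

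Among the 31 members with a promoter in the RefSeq table, 8 held AGGTCA on either strand, or 25.8%, beside 18.1% of the 27025 genes with a window of the same length. These were Acacb, Acadm, Acadvl, Cd36, Echs1, Plin2, Plin5 and Ucp3. A direct repeat of AGGTCA with any 1 base between the copies was found in 0 members and in 0.0481% of all genes. The repeat with any 4 bases between the copies was found in 0 members and in 0.0148% of all genes, and TCAAGGTCA, which contains AGGTCA, in 0 members and in 0.466%. Acaa2, Angptl4, Cpt1b, Crat, Decr1 and Lpl had no entry and were not searched.

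Total counts ran from 15354396 to 17317856 per library. Skeletal muscle markers summed to between 122300 and 181600 CPM (counts scaled to a common library size). Myh4, the myosin of the fastest fibres, stood between 33610 and 60200 CPM, as fits the labelled tissue. Mouse 2 at 6 months, mouse 1 at 15 months and mouse 3 at 21 months lay far out on the first principal component of all genes (35.2% of the variance, coordinates -48.0, 27.6 and 26.7). Results over all members are therefore given with and without these 3 libraries. Nothing beyond the labels says how the mice were kept or sampled. The p-values set differences between ages against the spread between mice of an age, among these 9 animals only.

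The members' summed level differed more between mice of an age than between ages. At 6 months it stood at 10440, 8456 and 5786 CPM in mice 1, 2 and 3. At 15 months it was 15790, 8835 and 7137 CPM, and at 21 months 7754, 6951 and 12430 CPM. The means were 8228 ± 2337, 10590 ± 4583 and 9045 ± 2960 CPM in order of age (SD, n = 3 each), so all 3 groups overlapped. The members thus summed to between 5786 and 15790 CPM, the least in mouse 3 at 6 months and the most in mouse 1 at 15 months. In whole-muscle RNA, fewer cells of a type and less RNA per cell cannot be told apart.

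No member passed an adjusted p of 0.05 in edgeR's quasi-likelihood test in any comparison of ages. At 21 against 6 months 0 of 37 members were called, beside 0.0153% of all tested genes, with a smallest adjusted p of 0.462 (edgeR). At 15 against 6 months 0 of 37 were called, beside 0.00767% of all genes, and the smallest adjusted p was 0.406. At 21 against 15 months and over all ages together 0 members were called as well, where the background was 0.0% in both. DESeq2 also called 0 members (Acot2 received no adjusted p there), beside 1.53% of all genes at 21 against 6 months, 0.892% at 15 against 6 months, 0.023% at 21 against 15 months and 1.56% over all ages.

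At an unadjusted p under 0.05, edgeR passed 1 member at 21 against 6 months (Acsl1, higher), beside 10.6% of all genes, or 5.14% higher and 5.5% lower. It passed 3 members at 15 against 6 months (Fabp3, Acsl1 and Bdh1, all higher), beside 10.3% of all genes, or 4.91% higher and 5.38% lower. It passed 0 at 21 against 15 months, beside 1.82% of all genes (1.08% higher and 0.736% lower), and 0 over all ages, beside 8.55%. At 21 against 6 months the groups did not overlap for 2 members, Acsl1 and Bdh1, both higher at 21 months, beside 7.81% of all genes higher and 8.31% lower without overlap. At 15 against 6 months, where 6.64% and 7.14% of all genes did not overlap, and at 21 against 15 months, where 2.84% and 3.3% did not, every member's groups overlapped.

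The median log2 fold change of the 37 members was 0.41 at 15 against 6 months, where 32 had a positive value, beside -0.01 over all tested genes, of which 48.6% had one. At 21 against 6 months the median was 0.19 with 30 positive values, beside -0.01 over all genes, of which 48.0% were positive. At 21 against 15 months it was -0.24 with 0 positive and 37 negative values, while 49.2% of all genes were positive. These comparisons share their groups in pairs, so their values are not independent of each other.

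Single mice set these medians. Without mouse 1 at 15 months the median at 15 against 6 months was 0.10 with 25 positive values, and at 21 against 15 months it was 0.11 with 32 positive values. Without mouse 3 at 21 months the median at 21 against 6 months was -0.08 with 11 positive values. Without all 3 outlying libraries the medians were 0.05, -0.08 and -0.17 at 15 against 6, 21 against 6 and 21 against 15 months, with 26, 12 and 8 positive values. Standard errors of the members' log2 fold changes at 21 against 6 months ran from 0.13 for Crat to 1.03 for Angptl4. Differences smaller than these errors could not be seen, and larger ones could be missed as well. Bdh1, at 1.90 with an SE of 0.92, did not pass (edgeR adjusted p = 0.491).

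**Figure D1:**
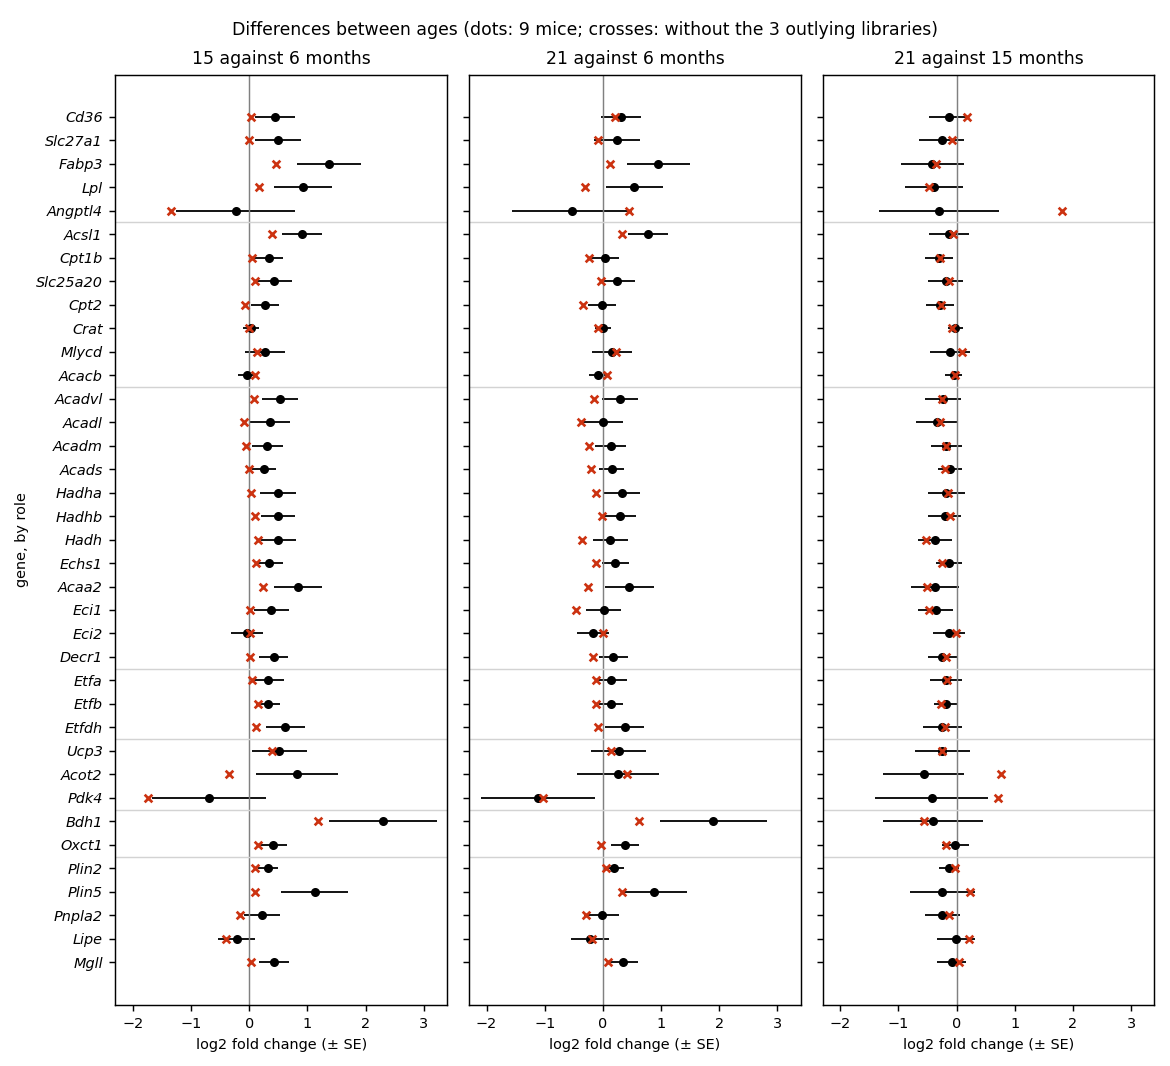
Log2 fold change (horizontal axis) of each of the 37 members (vertical axis, grouped by role) for 15 against 6, 21 against 6 and 21 against 15 months; dots and bars are the value and its SE from all 9 mice, and red crosses the value without the 3 outlying libraries. Most dots lie to the right of 0 in the first and second panels and all lie to the left in the third, while the crosses gather near 0, with medians of 0.05, -0.08 and -0.17.

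The uptake genes held both the highest and the lowest level per exon length among the 37 members. Fabp3, the fatty acid binding protein of muscle cytosol (chromosome 4, 130308738 to 130315463), had the highest level per length of any member at 618 CPM per kb of exon. It stood at 441, 172 and 216 CPM in mice 1, 2 and 3 at 6 months, at 1239, 598 and 306 CPM at 15 months and at 369, 343 and 894 CPM at 21 months. Mouse 1 at 15 months and mouse 3 at 21 months were high, mouse 2 at 6 months was the lowest, and the groups overlapped. For Fabp3 the log2 fold change was 1.37 at 15 against 6 months (SE 0.55, edgeR adjusted p = 0.423) and 0.95 at 21 against 6 months (SE 0.54, adjusted p = 0.566). Without the 3 outlying libraries these values were 0.46 and 0.12.

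Cd36, the membrane protein that helps fatty acids into the cell (chromosome 5, 17781690 to 17888959), followed Fabp3 and Pdk4 per length at 221 CPM per kb. Its levels were 781, 749 and 450.0 CPM at 6 months, 1443, 712 and 542 CPM at 15 months and 742, 683 and 1033 CPM at 21 months. One mouse at 15 months and one at 21 months stood above the other 7, and the groups overlapped. For Cd36 the log2 fold change was 0.45 at 15 against 6 months and 0.31 at 21 against 6 months, each with an SE near 0.35. Leaving out the 3 outlying libraries gave 0.03 and 0.21, and leaving out mouse 1 at 15 months alone gave -0.074 at 15 against 6 months. Fabp3 and Cd36 were not in a constant ratio, since Fabp3 amounted to 0.23 of the Cd36 level in mouse 2 at 6 months and to 0.866 of it in mouse 3 at 21 months.

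Lpl, the lipase that frees fatty acids from circulating triglyceride, ran from 222 CPM in mouse 2 at 6 months to 1202 CPM in mouse 1 at 15 months. Angptl4, the secreted inhibitor of that lipase, was the lowest member per length at 2.98 CPM per kb. It stood at 11.4, 24.97 and 1.04 CPM at 6 months, at 26.9, 1.23 and 3.66 CPM at 15 months and at 12.6, 4.53 and 8.71 CPM at 21 months. The lipase and its inhibitor therefore did not share an order, because mouse 2 at 6 months had the lowest Lpl and nearly the highest Angptl4. Slc27a1, a membrane acyl-CoA synthetase and transporter, ranged from 48.4 CPM in mouse 3 at 6 months to 167 CPM in mouse 1 at 15 months. Of the 5 uptake genes, 1 passed an unadjusted p of 0.05 at 15 against 6 months and 0 at 21 against 6 months, with median log2 fold changes of 0.50 and 0.31, or 0.03 and 0.12 without the 3 libraries.

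Acsl1, the long-chain acyl-CoA synthetase of muscle (chromosome 8, 46471037 to 46536051), was the only member past an unadjusted p of 0.05 in both comparisons with 6 months. Its levels were 383, 267 and 245 CPM at 6 months, 855, 459 and 365 CPM at 15 months and 403, 385 and 741 CPM at 21 months. All 3 mice at 21 months stood above all 3 at 6 months, although the lowest of the former (385.1 CPM) and the highest of the latter (383.4 CPM) nearly met. The log2 fold change of Acsl1 was 0.91 at 15 against 6 months (SE 0.35, edgeR adjusted p = 0.406) and 0.77 at 21 against 6 months (SE 0.34, adjusted p = 0.462). Without the 3 outlying libraries the values were 0.39 and 0.33.

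Cpt1b, the muscle carnitine palmitoyltransferase that commits acyl groups to mitochondria (chromosome 15, 89416405 to 89425862), varied less. Its levels were 397, 326 and 286 CPM at 6 months, 567, 379 and 325 CPM at 15 months and 315, 262 and 452 CPM at 21 months. The groups overlapped, with log2 fold changes of 0.33 for 15 and 0.03 for 21 against 6 months (SE 0.24 in both), or 0.04 and -0.24 without the 3 outlying libraries. In the annotation 81.4% of its exon length is shared with Gm44502 on the same strand, so reads may have been split between the pair.

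Crat, the carnitine acetyltransferase that buffers acetyl-CoA (chromosome 2, 30400476 to 30416017), was among the steadiest members. It stood at 527, 497 and 419 CPM at 6 months, 525, 470 and 474 CPM at 15 months and 434, 459 and 554 CPM at 21 months, with means of 481 ± 55.7, 490 ± 30.3 and 482 ± 63.3 CPM (SD, n = 3 each). Its log2 fold change at 21 against 6 months was 0.00 (SE 0.13), or -0.08 without the 3 outlying libraries. Acacb and Mlycd, which make and break down malonyl-CoA, the inhibitor of carnitine palmitoyltransferase, were each highest at 6 months in mouse 2 and lowest in mouse 3. There Acacb ran from 366 to 558 CPM and Mlycd from 51.1 to 128 CPM. Slc25a20, the carnitine and acylcarnitine exchanger, ranged from 73.0 to 194 CPM over the 9 mice and Cpt2, the inner membrane transferase, from 44.6 to 92.6 CPM. Of the 7 genes of activation and entry, 1 (Acsl1) passed an unadjusted p of 0.05 in each comparison with 6 months, and their median log2 fold changes were 0.28 at 15 against 6 months and 0.03 at 21 against 6 months, or 0.10 and -0.03 without the 3 outlying libraries.

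**Figure D2:**
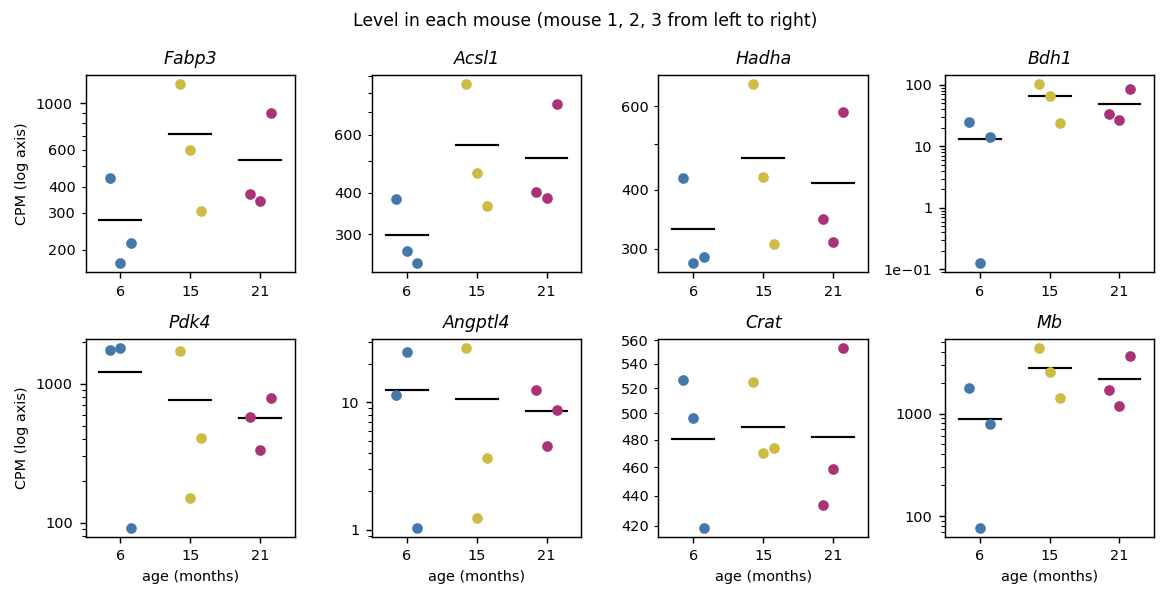
CPM on a log axis (range set for each panel) against age for 7 members and Mb, each dot a mouse (1, 2 and 3 from left to right) and each bar the mean of an age. Fabp3, Acsl1, Hadha, Bdh1 and Mb are high in mouse 1 at 15 months and mouse 3 at 21 months, Pdk4 and Angptl4 spread more than 10-fold at 6 and 15 months, and Crat stays between 419 and 554 CPM.

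The 12 enzymes of beta-oxidation had median log2 fold changes of 0.40 at 15 against 6 months and 0.16 at 21 against 6 months, and 0 of 12 passed an unadjusted p of 0.05 in either. Without the 3 outlying libraries the medians were 0.02 and -0.18, and at 21 against 6 months 0 of 12 values were positive. Acadl, the long-chain acyl-CoA dehydrogenase (chromosome 1, 66830839 to 66863309), was measured at 375, 284 and 204 CPM at 6 months, 556, 300 and 243 CPM at 15 months and 231, 216 and 418 CPM at 21 months. The ages overlapped, and its log2 fold change was 0.35 for 15 and 0.00 for 21 against 6 months (SE 0.35 in both), or -0.09 and -0.37 without the 3 outlying libraries.

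Acadvl, the very long-chain enzyme on the inner membrane (chromosome 11, 70010183 to 70015428), was measured at 422, 277 and 273 CPM at 6 months, 658, 425 and 314 CPM at 15 months and 324, 301 and 562 CPM at 21 months. Mouse 1 at 15 months and mouse 3 at 21 months were again the highest. Its log2 fold change was 0.52 for 15 and 0.29 for 21 against 6 months (SE 0.31 in both), or 0.09 and -0.15 without the 3 outlying libraries. Exons of Dvl2 on the opposite strand cover 42.9% of its exon length, and the use of strand in counting was not given in the sources used here. Acadm ranged from 315 to 608 CPM and Acads, the short-chain enzyme, from 39.3 to 67.4 CPM over the 9 mice.

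Hadha and Hadhb, the neighbours with the shared promoter stretch shown above, kept a nearly constant ratio. Hadha stood at 424, 280 and 289 CPM at 6 months, 669, 424 and 307 CPM at 15 months and 347, 311 and 583 CPM at 21 months. Hadhb stood at 600, 451 and 414 CPM, at 981, 613 and 470 CPM and at 556, 449 and 792 CPM in the same order. The ratio of Hadhb to Hadha stayed between 1.36 and 1.61, a span of 1.19-fold, while Hadha itself ran from 280 to 669 CPM. Their orders of mice differed at 6 months, where mouse 2 was the lowest for Hadha and mouse 3 for Hadhb. Such closeness was not particular to the neighbours, since Acadvl on chromosome 11 also stayed near Hadha. Acadvl and Hadha were at 324 and 347 CPM in mouse 1 at 21 months and at 314 and 307 CPM in mouse 3 at 15 months. The part of the shared stretch in the ratio was not tested. The genes share their libraries, and this is a description of 9 mice.

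The other enzymes of the spiral followed the same pair of high mice. Acaa2, the thiolase of medium chains, ranged from 81.0 CPM in mouse 2 at 6 months to 292 CPM in mouse 1 at 15 months, Hadh, the short-chain hydroxyacyl dehydrogenase, from 89.5 to 221 CPM, and Echs1, the enoyl-CoA hydratase, from 64.2 to 117 CPM. Among the enzymes for unsaturated chains, Eci1 ranged from 53.3 to 120 CPM and Decr1 from 108 to 235 CPM. Eci2 was the exception, with its highest level of 127 CPM in mouse 2 at 6 months and its lowest of 55.7 CPM in mouse 3 of the same age.

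Electron transfer flavoprotein passes electrons from the dehydrogenases to the respiratory chain. Etfa, its alpha subunit (chromosome 9, 55454436 to 55512243), was measured at 229, 196 and 153 CPM at 6 months, 328, 228 and 168 CPM at 15 months and 191, 162 and 287 CPM at 21 months. Etfb, the beta subunit (chromosome 7, 43444072 to 43457800), was measured at 150, 140 and 126 CPM, at 215, 165 and 141 CPM and at 131, 124 and 206 CPM in the same order. The subunits kept a ratio of 1.19 to 1.53 in CPM, and both were highest in mouse 1 at 15 months. Their log2 fold changes at 21 against 6 months were 0.15 for Etfa (SE 0.27) and 0.15 for Etfb (SE 0.21), and leaving out the 3 outlying libraries turned them to -0.114 and -0.115. Etfb shares 53.0% of its exon length with Gm45233 on the same strand. Etfdh, which hands the electrons to ubiquinone, ranged from 137 to 379 CPM.

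Pdk4, the kinase that switches off pyruvate dehydrogenase when fat is burnt (chromosome 6, 5483351 to 5496278), was second per length at 242 CPM per kb and differed widely between mice of an age. It stood at 1764, 1824 and 92.2 CPM at 6 months, 1727, 150 and 405 CPM at 15 months and 574, 334 and 790 CPM at 21 months. The highest mouse exceeded the lowest 19.8-fold at 6 months, 11.5-fold at 15 months and 2.37-fold at 21 months, beside medians of 1.28, 1.23 and 1.22 over all genes with a ratio. At 15 against 6 months the log2 fold change of Pdk4 was -0.69 (SE 0.97), at 21 against 6 months it was -1.12 (SE 0.98, edgeR adjusted p = 0.729), and the groups overlapped. With the 3 outlying libraries left out these values were -1.74 and -1.03.

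Ucp3, the mitochondrial carrier of muscle (chromosome 7, 100472991 to 100486432), was measured at 148, 170 and 50.3 CPM at 6 months, 264, 99.1 and 161 CPM at 15 months and 105, 113 and 225 CPM at 21 months. Mouse 3 was the lowest at 6 months, as for Pdk4. For Ucp3 the log2 fold change was 0.51 for 15 and 0.27 for 21 against 6 months (SE 0.47 in both), or 0.40 and 0.14 without the 3 outlying libraries. Acot2, the mitochondrial thioesterase, stood at 37.02, 38.6 and 8.52 CPM at 6 months, 113, 17.4 and 18.4 CPM at 15 months and 29.6, 31.3 and 39.6 CPM at 21 months. Its near-identical neighbour Acot1 was counted at 0.0387 to 0.0971 of the Acot2 level, so a share of these reads is uncertain.

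Bdh1, the dehydrogenase that turns hydroxybutyrate into acetoacetate (chromosome 16, 31422297 to 31458901), had the largest positive fitted differences of the 37. It stood at 25.3, 0.125 and 14.1 CPM at 6 months, 105, 65.8 and 23.6 CPM at 15 months and 33.6, 26.9 and 86.7 CPM at 21 months. The value of mouse 2 at 6 months rests on 2 reads, with a 95% exact Poisson interval of 0.0152 to 0.452 CPM that covers counting error only. All 3 mice at 21 months lay above all 3 at 6 months, while 15 and 6 months overlapped. For Bdh1 the log2 fold change was 2.30 at 15 against 6 months (SE 0.93, edgeR adjusted p = 0.428) and 1.90 at 21 against 6 months (SE 0.92, adjusted p = 0.491). Without the 3 outlying libraries, which include that mouse, the values were 1.19 and 0.62.

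Oxct1, which activates acetoacetate for oxidation (chromosome 15, 4026428 to 4155344), was measured at 340, 223 and 339 CPM at 6 months, 440, 456 and 300 CPM at 15 months and 363, 304 and 510 CPM at 21 months. It was the single member whose highest mouse at 15 months was not mouse 1. Its log2 fold change was 0.41 for 15 and 0.38 for 21 against 6 months (SE 0.24 in both), or 0.15 and -0.03 without the 3 outlying libraries, and the groups overlapped.

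Pnpla2, the lipase that starts breakdown of stored triglyceride (chromosome 7, 141455188 to 141460743), was measured at 268, 221 and 156 CPM at 6 months, 372, 198 and 182 CPM at 15 months and 179, 169 and 287 CPM at 21 months. Mgll, the monoglyceride lipase (chromosome 6, 88724412 to 88828360), was measured at 69.1, 49.2 and 44.8 CPM, at 102, 64.7 and 52.0 CPM and at 59.0, 61.6 and 86.1 CPM in the same order. In both genes mouse 3 was the lowest at 6 months, and the ages overlapped. The log2 fold change at 21 against 6 months was -0.02 for Pnpla2 (SE 0.31) and 0.34 for Mgll (SE 0.26), or -0.28 and 0.08 without the 3 outlying libraries. Plin5, the droplet coat protein of oxidative tissues, ranged from 10.5 CPM in mouse 3 at 6 months to 68.1 CPM in mouse 1 at 15 months, wider than Plin2, the general droplet coat, at 28.1 to 47.9 CPM. Lipe, the hormone-sensitive lipase, ranged from 16.7 to 38.1 CPM.

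**Figure D3:**
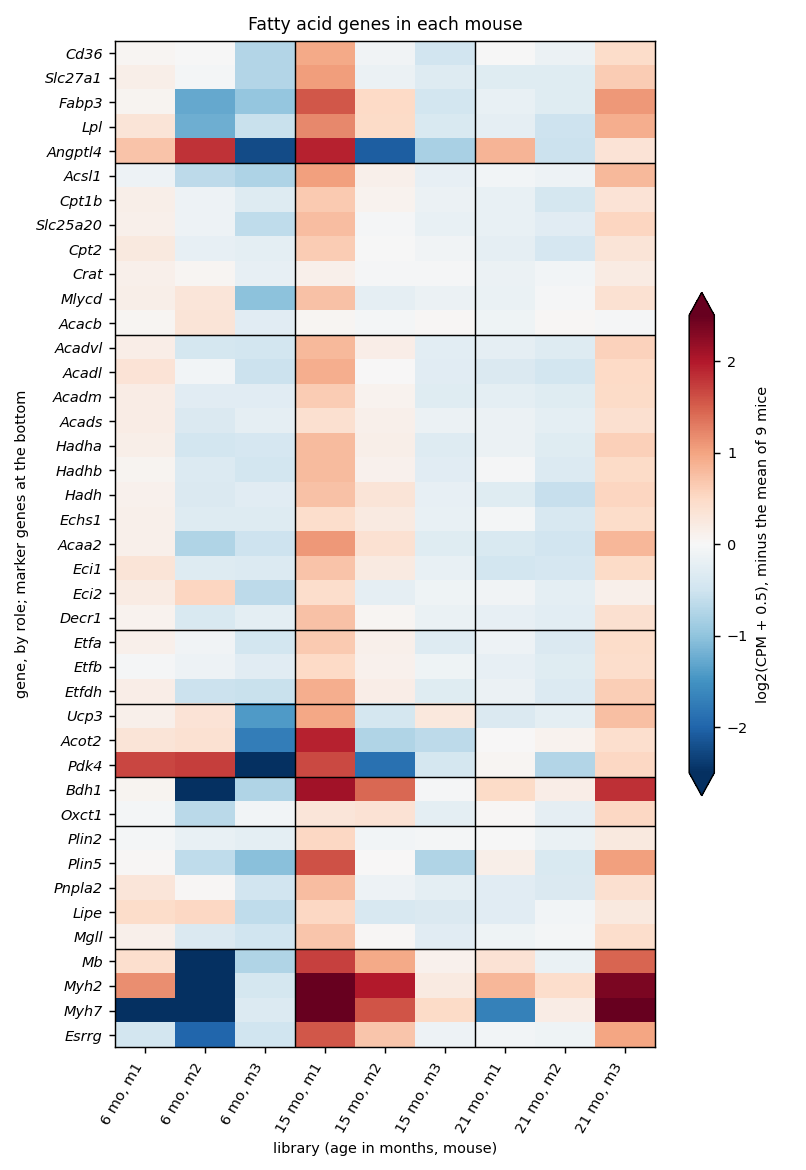
Colour shows log2(CPM + 0.5) minus the mean of the 9 mice for the 37 members, grouped by role, with Mb, Myh2, Myh7 and Esrrg at the bottom; columns are the libraries by age and mouse. Mouse 1 at 15 months and mouse 3 at 21 months are red across most members, mouse 3 at 6 months is blue across most, and Pdk4, Angptl4 and Acot2 are red in mouse 2 at 6 months, where Bdh1 and the 4 genes at the bottom are blue.

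Mouse 1 at 15 months was the highest of all 9 mice for 30 of 37 members, beside 13.5% of all tested genes. Within its age it was the highest for 36 members (39.8% of all genes), and mouse 3 at 21 months was the highest of its age for 35 (37.9% of all genes). At the low end, mouse 3 at 6 months was the lowest of 9 for 22 members (13.6% of all genes) and mouse 2 at 6 months for 8 (18.7%). Over the 36 members other than Bdh1, left out for its 2 reads, the median of the highest over the lowest mouse was 1.57 at 6 months, 1.96 at 15 months and 1.77 at 21 months, beside 1.28, 1.23 and 1.22 over all genes.

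The members followed more than 2 different orders of mice, which were noticed in the values and are given as a description. Mb, the oxygen store of oxidative fibres, stood at 1785, 77.7 and 793 CPM at 6 months, 4370, 2558 and 1426 CPM at 15 months and 1703, 1181 and 3668 CPM at 21 months. Its order of mice within all 3 ages was shared by 10 members, or 27.0%, beside 2.63% of all tested genes. These were Fabp3, Lpl, Acadm, Acads, Hadha, Hadh, Echs1, Acaa2, Decr1 and Bdh1. At 6 months another order was commonest, with mouse 1 the highest and mouse 3 the lowest, in 18 members beside 13.5% of all genes. Mb's order at 6 months was held by 11 members (15.1% of all genes). Cd36, Slc27a1, Acsl1, Cpt1b, Slc25a20, Cpt2, Acadvl, Acadl, Hadhb, Etfa, Etfb, Etfdh, Plin5 and Pnpla2 joined the commonest order to Mb's at 15 and 21 months. The share of all genes with that combination was not counted. The order of Pdk4 at 6 and 15 months, in which mouse 2 is the highest at 6 months and the lowest at 15 months, was that of 8 members counting Pdk4 itself, or 21.6%, beside 3.97% of all genes. The others were Angptl4, Ucp3, Acot2, Mlycd, Acacb, Eci2 and Lipe. At 21 months Pdk4 had the same order as Mb, and over all 3 ages the order of Pdk4 was shared by 1 other member, Eci2, so that the 2 made up 5.41% of the members beside 0.698% of all genes. Pdk4 ran from 0.319 to 6.52 times the level of Hadha in CPM over the 9 mice.

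**Figure D4:**
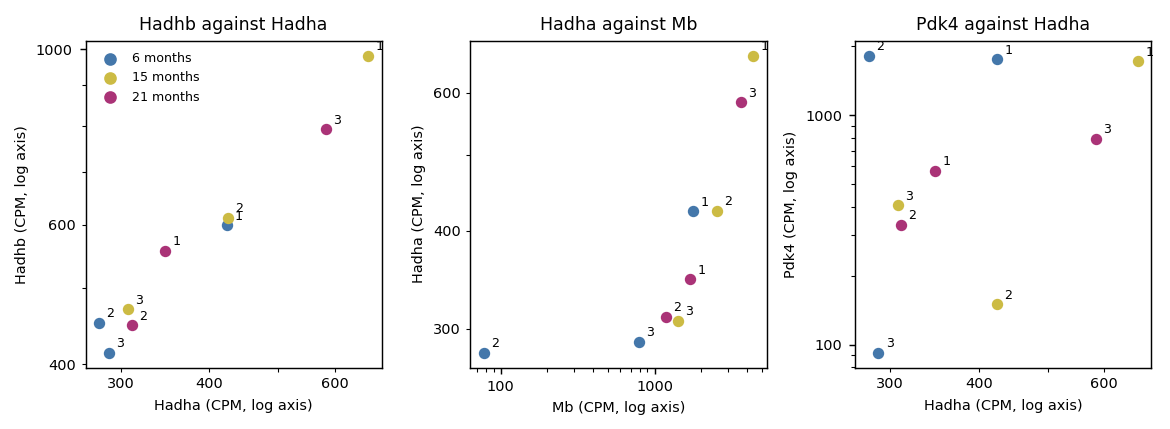
Levels in CPM on log axes, each dot a mouse labelled by its number and coloured by age: Hadhb against Hadha, Hadha against Mb, and Pdk4 against Hadha. Hadhb stays at 1.36 to 1.61 times Hadha and Hadha is highest in the 2 mice with the most Mb, while Pdk4 is at 1824 and 92.2 CPM in 2 mice at 6 months with nearly equal Hadha.

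Slow and fast oxidative fibre markers were high in the same pair of libraries as the members. Myh4, the myosin of the fastest fibres, was lowest in that pair, at 33610 CPM in mouse 1 at 15 months and 40530 CPM in mouse 3 at 21 months. In the other mice Myh4 stood between 47990 and 60200 CPM. The 11 slow fibre markers summed to 437, 95.1 and 224 CPM at 6 months, 1665, 688 and 405 CPM at 15 months and 308, 429 and 1470 CPM at 21 months. Myh2, which marks fast oxidative fibres, was at 1611, 0.751 and 530.0 CPM, at 4395, 2825 and 834 CPM and at 1267, 967 and 3642 CPM in the same order. Myh7, the slow myosin, stood between 0.438 CPM in mouse 2 at 6 months and 166 CPM in mouse 1 at 15 months. The slow fibre sum, Myh2 and Myh7 were each lowest in mouse 2 at 6 months, whereas the members' sum was lowest in mouse 3 of that age. The part of fibre makeup in the members' values was not tested.

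Markers of other cell types were read in the same libraries. Adipocyte markers other than Fabp4 and Car3, which muscle tissue also holds, summed to 44.8 CPM in mouse 2 at 6 months and to 3.02 to 8.83 CPM in the other 8 mice, with Adipoq at 9.33 CPM in that mouse and at 0.185 to 2.91 CPM elsewhere. Fabp4, found in fat and in endothelium, ranged from 170 CPM in mouse 3 at 6 months to 393 CPM in mouse 1 at 15 months, the mice in which most members were lowest and highest. The 10 endothelial markers summed to 728, 527 and 593 CPM at 6 months, 768, 649 and 600 CPM at 15 months and 620, 671 and 713 CPM at 21 months. The 10 macrophage markers summed to 280, 188 and 181 CPM, to 208, 137 and 93.3 CPM and to 167, 120 and 196 CPM in the same order. Both sums were highest in mouse 1 at 6 and 15 months and in mouse 3 at 21 months, as the members' sum was. Mb's order of mice at all 3 ages was held by Tek among the endothelial markers. Among the macrophage markers it was held by Cd68, Csf1r, C1qa, C1qb and C1qc. The other markers of both lists did not hold it, and 2.63% of all tested genes did. Vwf, an endothelial marker, was lowest of the 9 mice in mouse 1 at 15 months. These orders were noticed in the values. The part of these cells in the members' values was not tested.

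Other genes of lipid handling were taken from 4 lists, and edgeR called 0 of them in any comparison. Their counts past an unadjusted p of 0.05 at 21 against 6 months stand beside 5.14% of all tested genes higher and 5.5% lower (edgeR). Of 16 tested genes of peroxisomal oxidation, at 21 against 6 months 0 passed an unadjusted p of 0.05 upward and 1 downward, namely Abcd2, the peroxisomal fatty acid transporter, with a log2 fold change of -0.59 (SE 0.18, edgeR adjusted p = 0.255). Of 21 other mitochondrial acyl-CoA enzymes and transporters, 1 passed upward and 0 downward, namely the carnitine transporter Slc22a5 (0.38, SE 0.17, edgeR adjusted p = 0.453). Of 17 regulators of the PPAR, ERR and AMPK families, 1 passed upward and 0 downward, namely Esrrg (1.22, SE 0.50, edgeR adjusted p = 0.424). The log2 fold changes of these 3 genes were -0.68, 0.17 and 0.40 without the outlying libraries. When 15 was set against 6 months, 2 of the 16, 2 of the 21 and 3 of the 17 genes passed upward and 0 downward. Of all tested genes 4.91% passed upward there and 5.38% downward.

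Among 19 tested genes of droplets, lipase cofactors and triglyceride synthesis, 2 passed upward and 0 downward at 21 against 6 months, and 3 upward and 0 downward at 15 against 6 months. Fabp5, a fatty acid binding protein, stood at 10.2, 6.57 and 8.64 CPM at 6 months and 14.2, 13.0 and 18.2 CPM at 21 months, without overlap. Its log2 fold change was 0.84 (SE 0.20, edgeR adjusted p = 0.165), and it was the 1 gene of these lists past the threshold in DESeq2 (adjusted p = 0.0175). Its value was 0.53 without the 3 outlying libraries. Dgat2, an enzyme of triglyceride synthesis, had a log2 fold change of 1.42 (SE 0.63, edgeR adjusted p = 0.463), and 0.17 without the 3 outlying libraries. Of the tested genes in these lists, Phyh, Acat1, Slc22a5, Esrrg, Esrrb, Fabp5 and Dgat2 held the same order of mice as Mb at all 3 ages. The other genes of the lists did not, and 2.63% of all tested genes did.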

How the data were processed

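RNA of gastrocnemius from 9 mice, 3 at each of 6, 15 and 21 months, was selected with oligo(dT) beads and sequenced, per the labels' protocols. The authors deposited 1 table of estimated counts per gene, of which 90.0 to 90.7% in a library were whole within 0.005. The submitters' processing notes name the build mm10. Which aligner and counter were used, and whether strand was used, was not given in the sources used here. Libraries were matched to columns by name, and 0 columns belonged to other samples.

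Estimated counts were rounded, filtered with filterByExpr (minimum count 10) and scaled by TMM factors (0.923 to 1.05). Age was fitted as a factor over the 9 libraries with edgeR 4.0.16 in R 4.3.3 and tested by quasi-likelihood (6 residual and 4.24 prior degrees of freedom, biological coefficient of variation 0.164). Benjamini-Hochberg adjustment ran over 13044 genes, and 0.05 was the threshold. CPM use the TMM scaling, and CPM per kb divide by the GENCODE exon length. Coordinates and promoters come from RefSeq tables of GRCm38.p6 (mm10), and 17188 IDs were matched. The procedure was tested on simulated counts with the same spread for all genes and no outlying libraries. That simulation does not tell how well differences in members that vary widely between mice can be found.

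Members and gene lists were chosen with earlier results of these data known. Values in every mouse are given for members past an unadjusted p of 0.05 in edgeR or an adjusted p of 0.05 in DESeq2 and for the 2 of each role with the highest CPM per kb. Of the other lists, genes past the threshold and the 3 smallest p-values under 0.05 are named. Hadha, Hadhb, Angptl4, Acot2 and the ratios and orders of mice were singled out after their values were seen, as were the genes among the closing observations. Alternatives were DESeq2 1.42.0, RLE and total count scaling, no filter, at least 5 CPM in 3 libraries, a block for the replicate number, a fit of just the 2 ages compared, and leaving out each library or the 3 outlying ones. Counts of 15354396 to 17317856 per library leave counting error in low genes.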

Additional observations from a re-analysis of the deposited data

How the results depend on the processing

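The count of members past the threshold stayed at 0 in all 4 tests (each pair of ages and all ages together) under all 17 alternatives, except that the fit of only 2 ages does not exist for all ages together. The members' median log2 fold change ran from -0.08 to 0.33 at 21 against 6 months, from 0.10 to 0.58 at 15 against 6 months and from -0.505 to 0.109 at 21 against 15 months when each library was left out. The median turned its direction in 2 of these comparisons, at 21 against 6 months when mouse 3 of the oldest group was dropped, and at 21 against 15 months when mouse 1 of the 15-month group was. Same-numbered mice of different ages did not deviate together as a rule, with correlations of -0.418 to 0.406. The highest of these was between mouse 1 at 6 months and mouse 1 at 15 months. Differently numbered mice of different ages had correlations of -0.369 to 0.402, a similar range, so the numbers were not taken as pairs. With the replicate block the medians were 0.22, 0.39 and -0.14, and 0 members were called. Of 765 alternative values of the 15 genes given by rule, 707 kept their direction and 58 took the other sign, always for differences that had not passed the threshold. The 707 include fits without a mouse of the age not compared, which could hardly move a value. Cd36 at 21 against 6 months, for example, stayed at 0.312 when any single mouse at 15 months was left out. The 707 therefore overstate how stable the directions were. Where libraries were left out, fewer mice entered. For the rest the cause was not tested.

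Log2 fold changes that changed sign when 1 library was left out had these lowest and highest values. At 21 against 6 months they were Acadl from -0.362 to 0.241, Acadvl from -0.052 to 0.524, Cpt1b from -0.220 to 0.190, Crat from -0.107 to 0.074, Etfa from -0.127 to 0.310, Etfb from -0.121 to 0.282, Pnpla2 from -0.301 to 0.168 and Ucp3 from -0.169 to 0.575. At 15 against 6 months they were Acadl from -0.083 to 0.585, Cd36 from -0.074 to 0.707, Crat from -0.054 to 0.097 and Pnpla2 from -0.177 to 0.411. At 21 against 15 months they were Acadl from -0.711 to 0.088, Acadvl from -0.576 to 0.098, Acsl1 from -0.506 to 0.308, Bdh1 from -1.101 to 0.133, Cd36 from -0.395 to 0.386, Crat from -0.134 to 0.047, Etfa from -0.454 to 0.106, Etfb from -0.448 to 0.003, Fabp3 from -1.005 to 0.244, Mgll from -0.278 to 0.238, Oxct1 from -0.256 to 0.130, Pdk4 from -0.914 to 1.027, Pnpla2 from -0.524 to 0.156 and Ucp3 from -0.682 to 0.181. Without the 3 outlying libraries the values that changed sign were Acadl -0.373, Acadvl -0.154, Cpt1b -0.242, Crat -0.084, Etfa -0.114, Etfb -0.115 and Oxct1 -0.027 at 21 against 6 months, Acadl -0.094, Crat -0.001 and Pnpla2 -0.158 at 15 against 6 months, and Cd36 0.184, Mgll 0.046 and Pdk4 0.709 at 21 against 15 months. With the replicate block Pdk4 was at 0.129 at 21 against 15 months and Pnpla2 at 0.016 at 21 against 6 months, where total count scaling gave 0.067 for Pnpla2.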

Other observations

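Some genes outside the 37 split from their close relatives, and are given as values. Acsl3, another acyl-CoA synthetase, stood at 77.0, 75.9 and 83.9 CPM in mice 1, 2 and 3 at 6 months, 46.5, 46.1 and 85.7 CPM at 15 months and 73.6, 88.5 and 35.6 CPM at 21 months. It was thus lowest in mouse 3 at 21 months, where Acsl1 was at 741 CPM, and the ratio of Acsl1 to Acsl3 ran from 2.92 in mouse 3 at 6 months to 20.8 in that mouse. Cpt1a, the isoform of liver and many other tissues, stayed at 0.0509 to 0.0781 of the level of Cpt1b in CPM.

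Ppara, the nuclear receptor for fatty acids, stood at 18.04, 5.13 and 17.4 CPM at 6 months, 30.8, 37.2 and 14.0 CPM at 15 months and 19.5, 17.8 and 45.3 CPM at 21 months. Its lowest mouse was the one with the least Mb and Myh2, mouse 2 at 6 months. Ppard, a relative of Ppara, ranged from 18.8 to 27.2 CPM over the 9 mice.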
